A study of Mus musculus with 2 samples.

Results

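Of the 32285 genes counted in the series, 10 genes of innate immune sensing are described here: the Toll-like receptors Tlr2, Tlr4 and Tlr7, the co-receptor Cd14, the adaptor Myd88, the inflammasome genes Nlrp3, Pycard and Casp1, and the cytokines Il1b and Il18. They were taken by gene symbol from the deposited gene table, each symbol matched 1 gene, and the rule uses no measured value. The study compared single cells of whole brain from 6-month-old mice that all carry APP-KI, a knock-in allele used to model Alzheimer's disease. The groups are Fit2-Mut, in which Fit2 of macrophages was disrupted, with 1 library, and Fit2-WT, in which Fit2 was intact, with 1 library. Fit2 is the mouse gene Fitm2, which encodes a protein of the endoplasmic reticulum needed for lipid droplet formation; the number of animals per library, the driver of the disruption and the deleted stretch are not given in the labels.

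Toll-like receptors bind microbial and damage-derived molecules at the cell surface or, for Tlr7, in endosomes, and most of them signal through Myd88 to the transcription factor NF-kB. That signal switches on genes such as Il1b, Nlrp3 and Tnf. In a separate step the sensor Nlrp3 assembles with the adaptor Pycard (also called ASC) and the protease Casp1 into the inflammasome, which cuts the precursors of interleukin 1 beta and interleukin 18 into their active forms. In brains with amyloid, microglia are the cells most often studied for both steps. Transcript counts bear on the supply of these components and not on the cutting.

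After filters, 5824 Fit2-Mut cells and 5209 Fit2-WT cells remained, with a median of 7376 and 6817 UMIs per cell (a UMI marks 1 captured RNA molecule), and 9 cell barcodes occurred in both libraries. Clusters of cells made without the 10 genes and their pathway partners fell into 16 types named from markers, with 3 clusters of 132 Fit2-Mut and 82 Fit2-WT cells left unnamed. The targeted gene Fitm2 had 1 UMI in Fit2-Mut microglia-like cells and 16 UMIs in Fit2-WT microglia-like cells, a ratio of 0.0504 (0.0012 to 0.324). Over all cells it had 353 UMIs in Fit2-Mut and 306 UMIs in Fit2-WT.

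Levels are given as CPM, the UMIs of a gene summed over the cells of a type and divided by all UMIs of those cells, times 1000000. With 1 library per genotype there is no test and no replicate error, and every interval in parentheses is a 95% interval that covers counting error only. A ratio is Fit2-Mut over Fit2-WT, was taken where both libraries together held at least 20 UMIs, and is called past the fold at 1.5 or more either way. Of the 160 combinations of gene and type, 76 had that many UMIs, and 22 were past the fold upwards and 3 downwards. Over all genes in the 16 types, 17.8% of combinations were past the fold, in either direction.

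**Figure D1:**
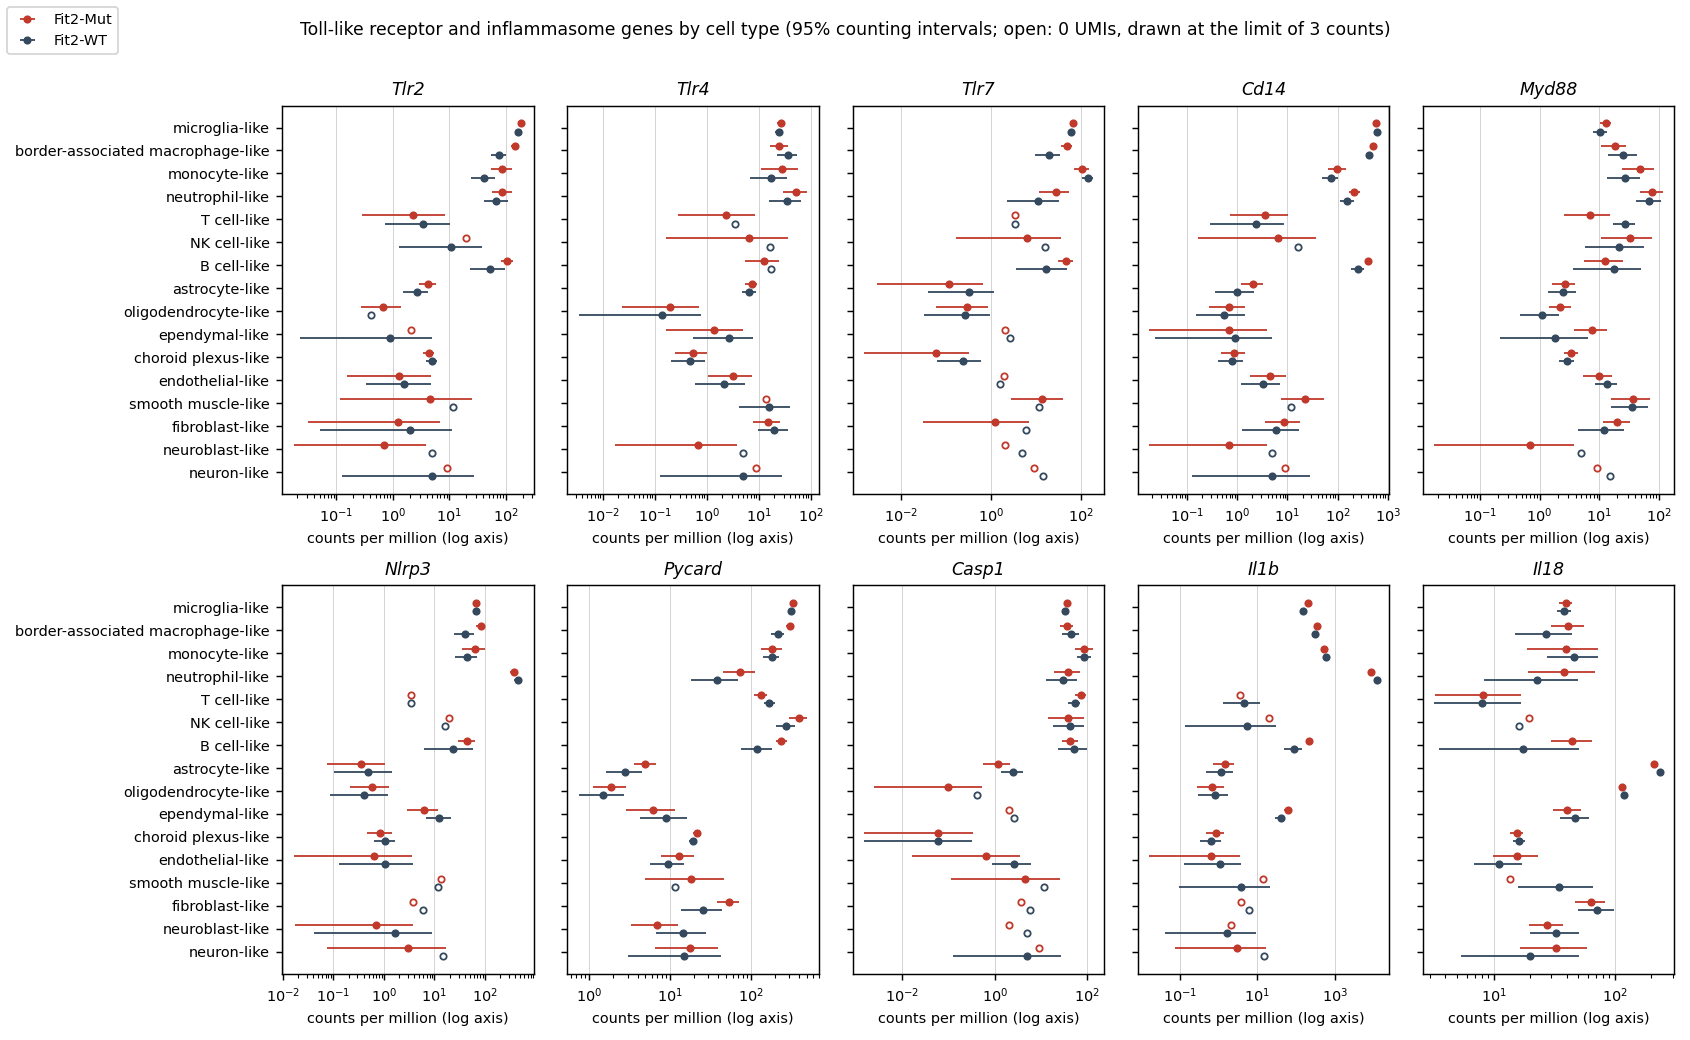
Level of each gene (CPM, log axis) in the 16 cell types, with Fit2-Mut in red above Fit2-WT in blue. Points are 1 library each, bars are 95% counting intervals, and open points mark 0 UMIs, drawn at the limit of 3 counts. Il1b and Nlrp3 peak in neutrophil-like cells and Cd14 and Tlr2 in microglia-like cells, while Il18 peaks in astrocyte-like cells.

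The stretches before the transcription starts of Il1b, Nlrp3 and Il18 are shown because Il1b and Nlrp3 had the most alike pattern over cell types of all pairs among the 10 genes, and Il18 had another. Each is the 250 bases before a RefSeq start on GRCm38.p6, read 5′ to 3′ on the gene's strand, and capitals mark matches to any of 5 motifs searched on both strands. The motifs were the kappa-B consensus bound by NF-kB, the AP-1 site TGANTCA, the PU.1 core GAGGAAG, the interferon-stimulated response element (GAAA, 2 bases of any kind, GAAA) and the TATA box TATAAA.
Il1b, chr2:129371140-129371389, minus strand: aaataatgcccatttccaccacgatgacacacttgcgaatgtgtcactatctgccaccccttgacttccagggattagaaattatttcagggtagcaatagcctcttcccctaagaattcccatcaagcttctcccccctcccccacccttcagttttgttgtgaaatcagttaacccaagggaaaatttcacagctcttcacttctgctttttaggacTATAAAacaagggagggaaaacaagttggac
Nlrp3, upstream start, chr11:59541319-59541568, plus strand: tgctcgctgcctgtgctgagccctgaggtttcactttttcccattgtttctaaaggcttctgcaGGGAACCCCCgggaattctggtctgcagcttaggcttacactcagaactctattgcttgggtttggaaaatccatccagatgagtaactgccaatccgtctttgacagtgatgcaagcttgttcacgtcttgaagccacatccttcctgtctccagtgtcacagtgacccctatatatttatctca
Nlrp3, downstream start, chr11:59542436-59542685, plus strand: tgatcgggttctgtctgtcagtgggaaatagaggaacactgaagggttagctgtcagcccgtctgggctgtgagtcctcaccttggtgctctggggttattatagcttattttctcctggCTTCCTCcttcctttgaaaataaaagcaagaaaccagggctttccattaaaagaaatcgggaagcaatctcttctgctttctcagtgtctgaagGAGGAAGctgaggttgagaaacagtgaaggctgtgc
Il18, chr9:50554450-50554699, plus strand: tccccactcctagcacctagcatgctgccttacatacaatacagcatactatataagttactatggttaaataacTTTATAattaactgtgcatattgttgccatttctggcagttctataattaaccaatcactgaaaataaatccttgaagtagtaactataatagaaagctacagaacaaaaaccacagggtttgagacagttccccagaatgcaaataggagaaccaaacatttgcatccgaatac

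The Il1b window held 1 TATA box, which begins 31 bases before the start, and no other match. The upstream Nlrp3 window held 1 kappa-B match, 186 bases before the start, and the downstream window held 2 PU.1 matches, of which the nearer begins 36 bases before the start. Il18 had 1 TATA match on the opposite strand, 175 bases away. RefSeq's table held 8 such windows for 7 of the 10 genes, and Tlr4, Tlr7 and Cd14 were not in it. Among the other windows, Tlr2 had 2 overlapping kappa-B matches, Pycard 1 PU.1 match, Myd88 1 interferon-stimulated response element and 2 TATA matches, and Casp1 no match. Of 32851 promoter windows of that length in the table, 7.25% held the kappa-B consensus, 6.75% AP-1, 10.6% PU.1, 2.98% the interferon-stimulated response element and 12.4% the TATA box. A match is a run of letters and not a shown binding site. In the GENCODE annotation of GRCm38, Il1b lies on chromosome 2 from 129364570 to 129371139 on the minus strand, Nlrp3 on chromosome 11 from 59541568 to 59566956 on the plus strand, and Il18 on chromosome 9 from 50554827 to 50581840 on the plus strand.

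Microglia-like cells held most UMIs of Tlr2, Tlr4, Tlr7, Cd14, Nlrp3, Pycard and Casp1. None of the 10 genes was past the fold there between the genotypes. Of all genes with at least 20 UMIs in these cells, 10.3% were. Of those with at least 100 UMIs together, as all 10 genes had, 2.55% were. The median log2 ratio of the 10 genes was 0.12, beside 0.06 for all 11837 genes, and 8 of the 10 ratios lay above 1. The type had 566 Fit2-Mut and 546 Fit2-WT cells, with a median of 11200 and 9690 UMIs. All 9 microglia markers were present, at a summed level of 9279 CPM in Fit2-Mut and 8940 CPM in Fit2-WT.

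**Figure D2:**
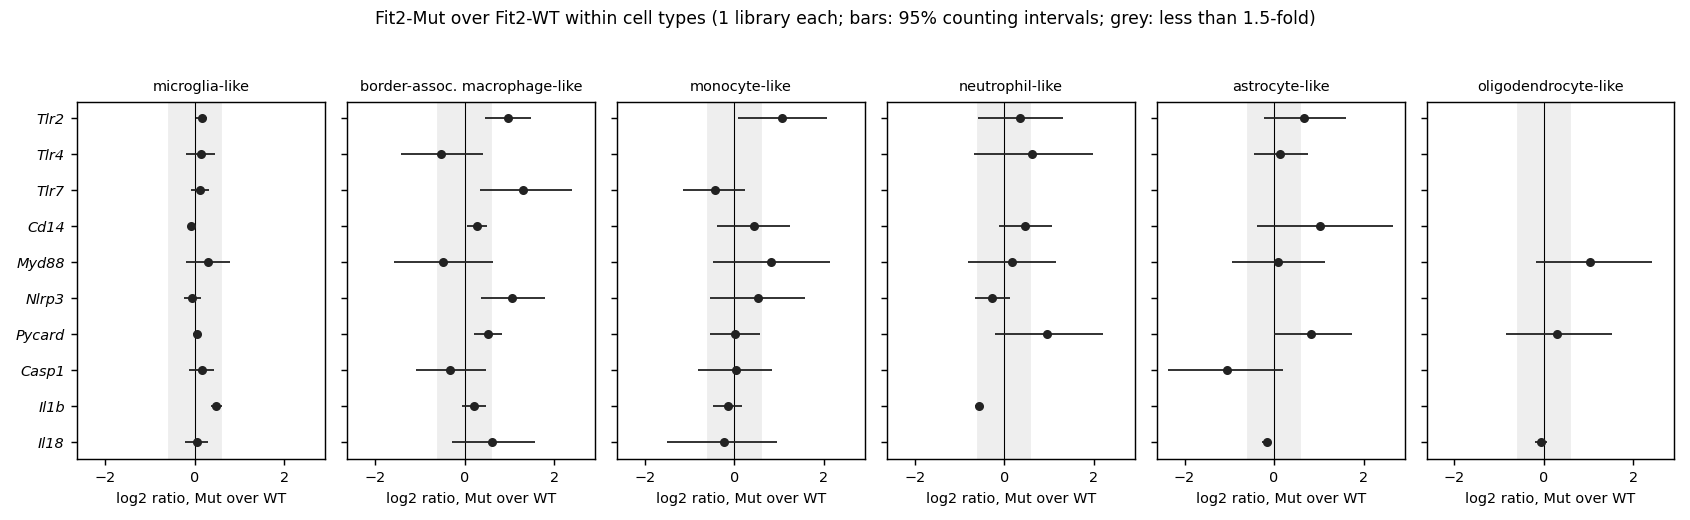
Log2 ratio of levels, Fit2-Mut over Fit2-WT, for genes with at least 20 UMIs in 6 cell types. Points are ratios between 1 library each, bars are 95% counting intervals, and the grey band marks less than 1.5-fold. In microglia-like cells all 10 genes lie inside the band.

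Among the receptors, Tlr2, which recognises lipoproteins at the cell surface, was highest in microglia-like cells, at 187 CPM in Fit2-Mut and 168 CPM in Fit2-WT, a ratio of 1.11 (1.02 to 1.21). Border-associated macrophage-like cells came second, with 147 CPM in Fit2-Mut and 75.6 CPM in Fit2-WT. Below these, the B cell-like, neutrophil-like and monocyte-like cells were not separated by their intervals. In endothelial-like cells, which served as background, Tlr2 had 2 UMIs in Fit2-Mut and 3 UMIs in Fit2-WT.

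Tlr4, the receptor for bacterial lipopolysaccharide, was low throughout and its leading types could not be ordered. Microglia-like cells had 26.3 CPM in Fit2-Mut and 24.1 CPM in Fit2-WT (ratio 1.09, 0.873 to 1.37). Neutrophil-like cells had 52.4 CPM in Fit2-Mut and 34.3 CPM in Fit2-WT from 15 and 9 UMIs. Fibroblast-like cells, outside the immune types, had 12 UMIs of Tlr4 in Fit2-Mut and 10 UMIs in Fit2-WT, and astrocyte-like cells had 7.26 CPM in Fit2-Mut and 6.59 CPM in Fit2-WT. Barcodes with 10 to 100 UMIs, which stand for free RNA, had 9.25 CPM of Tlr4 in Fit2-Mut and 6.56 CPM in Fit2-WT, and free RNA was estimated at 5.30% of the UMIs of Fit2-Mut and 4.66% of those of Fit2-WT astrocyte-like cells.

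Tlr7, the endosomal receptor for single-stranded RNA, stood highest in monocyte-like cells, with 106 CPM in Fit2-Mut and 143 CPM in Fit2-WT, ahead of microglia-like cells with 66.0 CPM in Fit2-Mut and 60.8 CPM in Fit2-WT. The intervals of those leading types met in at least 1 library. Microglia-like cells gave a ratio of 1.09 (0.942 to 1.25), and 47.0% of Fit2-Mut and 39.7% of Fit2-WT microglia-like cells had a Tlr7 UMI. Thinned to 5000 UMIs per cell, so that depth is equal, the shares were 28.8% in Fit2-Mut and 29.6% in Fit2-WT. No endothelial-like cell had a Tlr7 UMI in either library, against limits of 1.94 CPM in Fit2-Mut and 1.60 CPM in Fit2-WT.

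Cd14, which hands lipopolysaccharide to the Tlr4 complex, followed the order microglia-like, border-associated macrophage-like, then B cell-like cells. Microglia-like cells had 584 CPM in Fit2-Mut and 616 CPM in Fit2-WT, a ratio of 0.947 (0.906 to 0.991). Border-associated macrophage-like cells had 506 CPM in Fit2-Mut and 418 CPM in Fit2-WT. B cell-like cells, which are not known for Cd14, had 398 CPM in Fit2-Mut and 255 CPM in Fit2-WT, and in Fit2-WT 4 cells held all 44 of their Cd14 UMIs, 41 of them in 1 cell. Microglia markers in those B cell-like cells summed to 5240 CPM in Fit2-Mut and 2019 CPM in Fit2-WT. Without cells in which microglia or neutrophil markers reached 0.2% of UMIs, Cd14 there had 100 CPM in Fit2-Mut and 16.7 CPM in Fit2-WT. The cause of this change was not tested. Free RNA contained 71.9 CPM of Cd14 in Fit2-Mut and 55.4 CPM in Fit2-WT.

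Myd88, the adaptor shared by most Toll-like receptors, was sparse. Its highest levels were in neutrophil-like cells, with 76.9 CPM in Fit2-Mut and 68.6 CPM in Fit2-WT, and the order below was not resolved. Microglia-like cells had 12.7 CPM in Fit2-Mut and 10.4 CPM in Fit2-WT (ratio 1.23, 0.875 to 1.74), from 90 and 59 UMIs. At 1000 UMIs per cell a Myd88 UMI was found in 1.41% of Fit2-Mut and 0.366% of Fit2-WT microglia-like cells. With so few cells and 1 library per genotype, these shares cannot be read as a difference. The shares in endothelial-like cells were 1.18% in Fit2-Mut and 1.85% in Fit2-WT. Those cells had 9.70 CPM of Myd88 in Fit2-Mut and 13.3 CPM in Fit2-WT, so they are no background for this gene. Myd88 lies within the bounds of Slc22a14 on the same strand and overlaps Acaa1a on the other, and the authors' counting does not state how such reads were assigned.

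Nlrp3, the inflammasome sensor, was highest in neutrophil-like cells, at 381 CPM in Fit2-Mut and 457 CPM in Fit2-WT, with intervals apart from every other type. At least 1 Nlrp3 UMI was found in 73.8% of Fit2-Mut and 71.4% of Fit2-WT neutrophil-like cells, although these had a median of only 2955 and 3142 UMIs. Microglia-like, border-associated macrophage-like and monocyte-like cells formed a group below them whose order differed between the libraries. In microglia-like cells Nlrp3 stood at 65.4 CPM in Fit2-Mut and 67.9 CPM in Fit2-WT, a ratio of 0.964 (0.841 to 1.11).

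Pycard, the adaptor that links the sensor to the protease, had a wider range of cell types than the sensor. NK cell-like cells had 393 CPM in Fit2-Mut and 274 CPM in Fit2-WT, and microglia-like cells had 331 CPM in Fit2-Mut and 320 CPM in Fit2-WT, with intervals that met in both libraries. T cell-like cells had 135 CPM in Fit2-Mut and 171 CPM in Fit2-WT, a ratio of 0.786 (0.611 to 1.01). Nlrp3 itself had 0 UMIs in T cell-like and NK cell-like cells of both libraries, against limits of 3 counts that correspond to 3.48 CPM in Fit2-Mut and 3.47 CPM in Fit2-WT T cell-like cells. In microglia-like cells the Pycard ratio was 1.03 (0.973 to 1.10).

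Casp1, the protease of the inflammasome, was likewise spread over leukocytes. Monocyte-like cells had 86.3 CPM in Fit2-Mut and 84.9 CPM in Fit2-WT, and T cell-like cells had 72.0 CPM in Fit2-Mut and 53.3 CPM in Fit2-WT, levels whose intervals met. Microglia-like cells stood at 37.4 CPM in Fit2-Mut and 33.6 CPM in Fit2-WT (ratio 1.11, 0.921 to 1.35). Oligodendrocyte-like cells had 1 Casp1 UMI in Fit2-Mut and 0 UMIs in Fit2-WT.

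Il1b, the precursor of interleukin 1 beta, was highest by far in neutrophil-like cells, at 8167 CPM in Fit2-Mut and 12090 CPM in Fit2-WT. These cells made up 61 of 5824 Fit2-Mut and 70 of 5209 Fit2-WT cells, yet they held 48.4% of all Il1b UMIs of Fit2-Mut cells and 69.5% of those of Fit2-WT cells. Il1b was found in 60 of the 61 Fit2-Mut and 68 of the 70 Fit2-WT neutrophil-like cells. Per neutrophil-like cell the UMIs ran from 0 to 118 with a median of 37 in Fit2-Mut, and from 0 to 102 with a median of 43.5 in Fit2-WT. The ranges overlapped, and the ratio of summed levels, 0.675 (0.640 to 0.713), was just short of the fold.

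That ratio moved with a few barcodes. Microglia markers summed to 1785 CPM in the Fit2-Mut neutrophil-like cells and to 175 CPM in those of Fit2-WT, and the 8 neutrophil markers to 127100 CPM in Fit2-Mut and 173600 CPM in Fit2-WT. Choroid plexus markers summed to 18310 CPM in Fit2-Mut and 899 CPM in Fit2-WT, and their part in the ratio was not tested. Without cells in which microglia markers were at least 0.2% of UMIs, an alternative chosen after seeing the data, 2 Fit2-Mut cells and no Fit2-WT cell dropped out, 1 of them with 42696 UMIs. Il1b then stood at 9651 CPM in Fit2-Mut and 12090 CPM in Fit2-WT, a ratio of 0.798 (0.756 to 0.843). For Nlrp3 the values without them were 445 CPM in Fit2-Mut and 457 CPM in Fit2-WT, a ratio of 0.973 (0.741 to 1.28).

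Of the neutrophil-like members with enough UMIs, 2 of 7 were past the fold, both upwards and with intervals that held 1, beside 33.3% of all genes in that type. They were Tlr4, and Pycard with 21 UMIs in Fit2-Mut and 10 UMIs in Fit2-WT. All 21 Fit2-Mut Pycard UMIs lay in 5 cells, 11 of them in the cell with 42696 UMIs. Pycard had 8 UMIs in Fit2-Mut and 10 UMIs in Fit2-WT once the 2 cells were left out, a ratio of 0.898 (0.308 to 2.53).

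**Figure D3:**
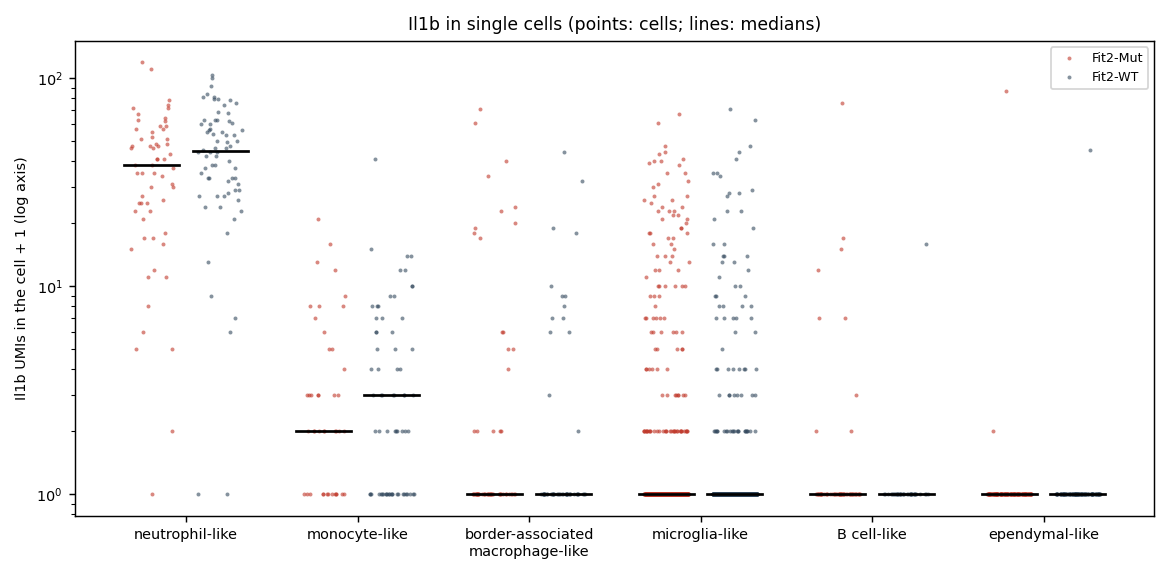
Il1b UMIs in single cells plus 1 (log axis) for 6 cell types, Fit2-Mut in red to the left of Fit2-WT in blue. Each point is a cell and each line a median; neutrophil-like cells have medians of 37 in Fit2-Mut and 43.5 in Fit2-WT, while most cells of the other types have few or none and a few cells have many.

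In microglia-like cells Il1b was the member with the largest ratio. Its level was 206 CPM in Fit2-Mut (1455 UMIs) and 148 CPM in Fit2-WT (842 UMIs), a ratio of 1.39 (1.28 to 1.52). A minority of cells carried it, 124 of 566 in Fit2-Mut (21.9%) and 80 of 546 in Fit2-WT (14.7%). At 1000 UMIs per cell the shares were 10.2% (7.87 to 13.1) in Fit2-Mut and 6.04% (4.20 to 8.38) in Fit2-WT, against 0% (0 to 1.08) of Fit2-Mut and 0.231% (0.00586 to 1.28) of Fit2-WT endothelial-like cells. At 5000 UMIs per cell they were 19.9% of 468 Fit2-Mut and 13.9% of 416 Fit2-WT cells. The 5 cells with most Il1b held 17.7% of its UMIs in Fit2-Mut and 31.0% in Fit2-WT, and without those 5 cells per library the log2 ratio was 0.73 instead of 0.48. Such clumping makes the counting interval too narrow.

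Neutrophil markers were at 264 CPM in Fit2-Mut microglia-like cells and 218 CPM in those of Fit2-WT, with 1 and 5 of the 8 markers at 0. Immediate early and dissociation genes, many of which rise while tissue is broken up, summed to 12810 CPM in Fit2-Mut and 13490 CPM in Fit2-WT. Their list, here and below, also holds the chemokine genes Ccl3 and Ccl4, so the sum is not a measure of dissociation alone. Subtracting free RNA, which held 76.4 CPM of Il1b in Fit2-Mut and 66.4 CPM in Fit2-WT, left the microglia-like log2 ratio at 0.48. Il1b overlaps its antisense gene Il1bos, and whether the counting used strand is not stated.

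Outside neutrophil-like and microglia-like cells, Il1b was found in monocyte-like cells, with 522 CPM in Fit2-Mut and 580 CPM in Fit2-WT (ratio 0.900, 0.723 to 1.12), and in border-associated macrophage-like cells, with 344 CPM in Fit2-Mut and 299 CPM in Fit2-WT (ratio 1.15, 0.953 to 1.39). In ependymal-like cells 1 barcode held 86 of the 87 Fit2-Mut UMIs and 1 barcode held all 44 Fit2-WT UMIs. Neutrophil markers summed to 338 CPM in Fit2-Mut and 334 CPM in Fit2-WT in that type, so its ratio of 1.53 compares 1 barcode with another.

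Il18, the precursor of interleukin 18, differed from the other 9 genes in where it was found. Astrocyte-like cells had 211 CPM in Fit2-Mut and 237 CPM in Fit2-WT, a ratio of 0.891 (0.831 to 0.956). Oligodendrocyte-like cells came next with 114 CPM in Fit2-Mut and 119 CPM in Fit2-WT (ratio 0.958, 0.877 to 1.05). These types held 46.1% and 30.6% of the Il18 UMIs of Fit2-Mut cells, and 47.5% and 28.9% of those of Fit2-WT cells, whereas microglia-like cells held 7.24% in Fit2-Mut and 7.21% in Fit2-WT.

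An Il18 UMI was present in 56.6% of Fit2-Mut and 59.4% of Fit2-WT astrocyte-like cells, and the 5 highest cells held only 2.65% and 3.34% of the UMIs. Microglia-like cells had 39.4 CPM in Fit2-Mut and 38.3 CPM in Fit2-WT. Free RNA had 103 CPM of Il18 in Fit2-Mut and 99.0 CPM in Fit2-WT, and was estimated at 0.883% of the UMIs of Fit2-Mut and 1.11% of those of Fit2-WT microglia-like cells, beside the shares in astrocyte-like cells given for Tlr4. The 6 astrocyte-like clusters ranged from 42.8 to 305 CPM in Fit2-Mut and from 45.2 to 330 CPM in Fit2-WT. The top cluster, led by Lhx2 and Hapln1, had the same place in both libraries, and the ratio lay below 1 in all 6 clusters, with an interval that held 1 in each. Il18 overlaps Bco2 and Tex12 on the opposite strand.

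Over the 32 points of 16 types and 2 libraries, the level patterns of Nlrp3 and Il1b were each other's nearest among 15523 genes, with a Pearson correlation of log2(CPM + 1) of 0.97. The next nearest of Il1b were Pirb and Csf3r, and of Nlrp3 Gm40645 and Csf3r. Cd14 lay nearest P2ry6, Aif1 and Fcgr1, and Tlr7 nearest P2ry6, Fcgr1 and Csf1r, genes known from macrophages and microglia. Tlr2 was nearest Ncf1, Fgd2 and Btk. Casp1 had Traf3ip3, Ikzf1 and Arhgap45 as its nearest genes (0.98, 0.97 and 0.97), Pycard had Otulinl, Elf4 and Ccl3, and Myd88 had Stat6, Myh9 and Rin3. The best matches were weaker for Tlr4 (Il15, 0.82) and Il18 (Gm35188, 0.80). Il18 had a correlation of -0.40 with Pycard, -0.33 with Casp1 and 0.22 with Nlrp3, the inflammasome genes whose products act on its own. Both libraries share the cell types, so the 32 points are not independent and these correlations are descriptions. Some points rest almost wholly on 1 barcode, as for Il1b in ependymal-like cells of each library. The same holds for Il1b and for Nlrp3 in Fit2-WT B cell-like cells.

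Microglia-like cells comprised 3 clusters, made without the 10 genes. Cluster 7 (335 Fit2-Mut and 297 Fit2-WT cells) was led by Spp1, Gpnmb and Lpl, genes of disease-associated microglia. Cluster 14 (115 Fit2-Mut and 109 Fit2-WT cells) was led by Tmem119 and P2ry12 among others, genes of homeostatic microglia. Cluster 11 (116 Fit2-Mut and 140 Fit2-WT cells) was shallow, with a median of 3856 UMIs in Fit2-Mut and 3934 UMIs in Fit2-WT, and was led by Cox6a2 and Syngr1, with Tyrobp and Trem2 among its 10 leading genes.

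The cell surface receptors split between these clusters. Tlr2 was higher in cluster 7, at 215 CPM in Fit2-Mut and 205 CPM in Fit2-WT, than in cluster 14, at 125 CPM in Fit2-Mut and 84.2 CPM in Fit2-WT. Cd14 had the same order, with 658 CPM in Fit2-Mut and 735 CPM in Fit2-WT in cluster 7, against 432 CPM and 427 CPM in cluster 14. Tlr4 ran the other way, with ratios of cluster 7 to cluster 14 of 0.523 (0.373 to 0.744) in Fit2-Mut and 0.457 (0.310 to 0.685) in Fit2-WT. Tlr7 and Il18 were also lower in cluster 7 than in cluster 14 in each library, with ratios of 0.670 and 0.703 in Fit2-Mut and 0.713 and 0.465 in Fit2-WT, all with intervals below 1.

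**Figure D4:**
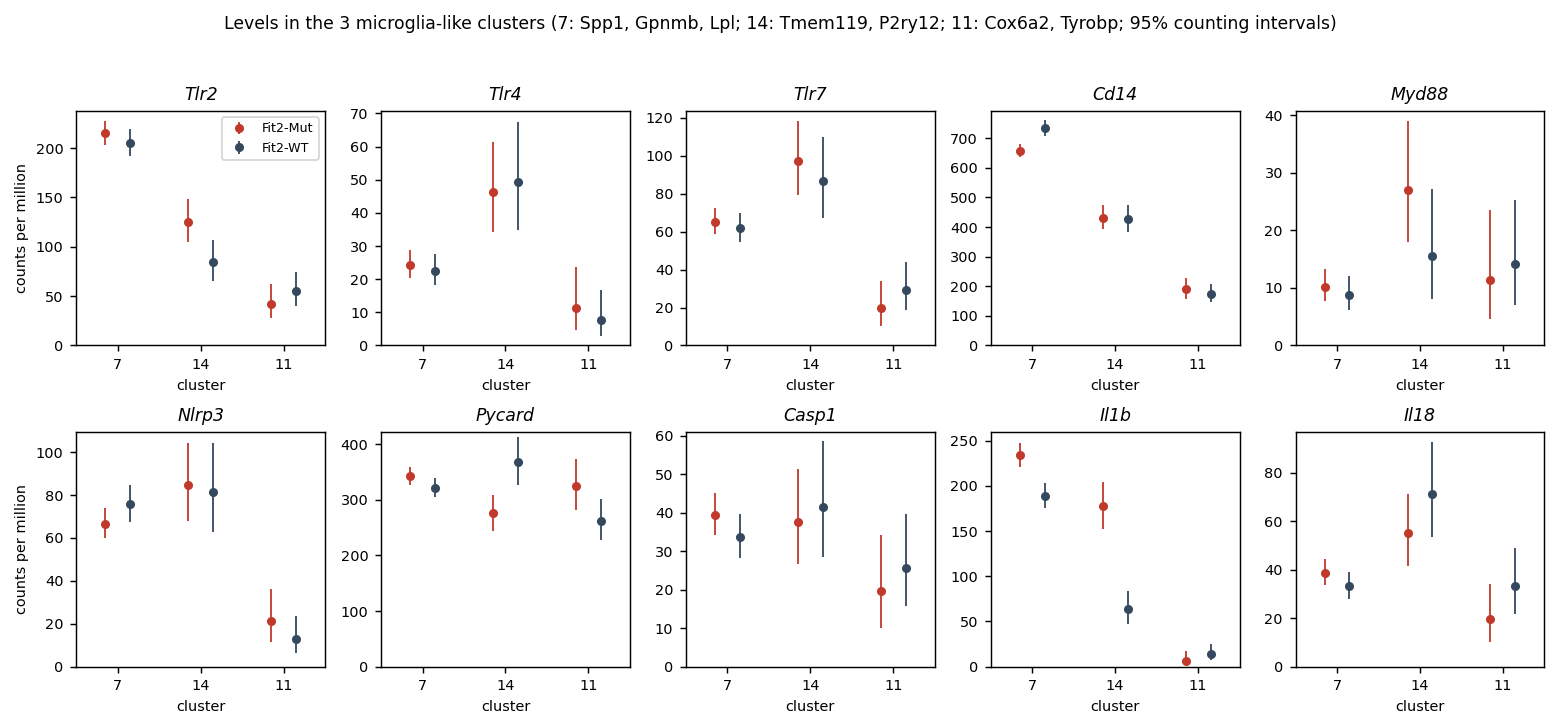
Level of each gene (CPM, axes from 0) in the 3 microglia-like clusters, Fit2-Mut in red to the left of Fit2-WT in blue, with 95% counting intervals. Il1b in cluster 14 is 177 in Fit2-Mut and 63.4 in Fit2-WT, and Pycard in cluster 11 is 325 in Fit2-Mut and 263 in Fit2-WT, against 276 in Fit2-Mut and 368 in Fit2-WT in cluster 14.

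The Il1b difference between genotypes was widest in cluster 14. There its level was 177 CPM in Fit2-Mut (184 UMIs) and 63.4 CPM in Fit2-WT (49 UMIs), a ratio of 2.80 (2.03 to 3.91). These UMIs lay in 22 of 115 Fit2-Mut and 10 of 109 Fit2-WT cells, and 5 cells held 62.5% of them in Fit2-Mut and 87.8% in Fit2-WT, so few cells carry the ratio. Cluster 7 had 234 CPM in Fit2-Mut and 189 CPM in Fit2-WT, a ratio of 1.24 (1.13 to 1.36). Cluster 11 had 4 UMIs in Fit2-Mut and 11 UMIs in Fit2-WT. Whether the ratios differ between clusters cannot be tested with 1 library per genotype.

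Cluster 11 also differed from the others in its dissociation genes, which were not left out when the clusters were made. These summed to 959 CPM in Fit2-Mut and 975 CPM in Fit2-WT in cluster 11, against 17590 CPM in Fit2-Mut and 18390 CPM in Fit2-WT in cluster 14, and 13230 CPM and 14940 CPM in cluster 7. Nlrp3 was lower in cluster 11 than in cluster 14 by a ratio of 0.25 (0.128 to 0.450) in Fit2-Mut and 0.157 (0.0718 to 0.308) in Fit2-WT. For Pycard the same ratios were 1.18 (0.978 to 1.42) in Fit2-Mut and 0.714 (0.594 to 0.858) in Fit2-WT. The part of dissociation in these levels was not tested.

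The other members were also counted in microglia-like cells with and without Il1b. At 5000 UMIs per cell, Cd14 was found in 88.2% of Fit2-Mut cells with Il1b and 76.0% of those without, and in 91.4% and 77.7% of the Fit2-WT cells. Nlrp3 was found in 33.3% of Fit2-Mut cells with Il1b and 20% of those without, and in 29.3% and 20.4% of the Fit2-WT cells. The intervals of the Nlrp3 shares in Fit2-WT overlapped, at 18.1 to 42.7 and 16.3 to 24.9. For Pycard the shares were 76.3% and 77.6% in Fit2-Mut and 74.1% and 73.2% in Fit2-WT. Tlr4 was found in 15.1% of Fit2-Mut cells with Il1b and 12.8% of those without, and in 5.17% and 10.1% of the Fit2-WT cells. In Fit2-WT the shares of Tlr7, Myd88 and Il18 were also lower in cells with Il1b, while in Fit2-Mut they were higher. Cells of 1 library share their source, so these shares are descriptions and their differences were not tested.

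In border-associated macrophage-like cells, the macrophages of meninges and vessels, 4 of the 10 genes were past the fold upwards, beside 32.5% of all genes there. They were Tlr2 (ratio 1.95, 1.37 to 2.82), Tlr7 with 49 UMIs in Fit2-Mut and 11 UMIs in Fit2-WT (2.48, 1.27 to 5.29), Nlrp3 with 82 UMIs in Fit2-Mut and 22 UMIs in Fit2-WT (2.08, 1.28 to 3.49) and Il18 (1.52, 0.825 to 2.96). The type had 59 Fit2-Mut cells with a median of 11150 UMIs and 53 Fit2-WT cells with a median of 8363 UMIs. Its own 8 markers summed to 1815 CPM in Fit2-Mut and 2718 CPM in Fit2-WT, and microglia markers to 6540 CPM in Fit2-Mut and 3339 CPM in Fit2-WT.

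Without cells in which microglia or neutrophil markers reached 0.2% of UMIs, 23 Fit2-Mut and 31 Fit2-WT border-associated macrophage-like cells remained. Tlr2 then had 71.8 CPM in Fit2-Mut and 72.9 CPM in Fit2-WT, a ratio of 0.985 (0.453 to 2.06), and Tlr7 had 1 UMI in each library, too few for a ratio. Nlrp3 had 44.2 CPM in Fit2-Mut and 34.7 CPM in Fit2-WT, from 8 and 10 UMIs, a ratio of 1.27 (0.437 to 3.58). Il18 had 55.2 CPM in Fit2-Mut and 17.4 CPM in Fit2-WT, from 10 and 5 UMIs, a ratio of 3.18 (0.991 to 11.9). These low counts leave wide intervals. Cd14 was on the other side of 1 from its value in the full set, with 260 CPM in Fit2-Mut and 354 CPM in Fit2-WT (ratio 0.733, 0.508 to 1.05). Il1b was 839 CPM in Fit2-Mut and 538 CPM in Fit2-WT among the remaining cells, a ratio of 1.56 (1.24 to 1.96). In the full set only 20 of 59 Fit2-Mut and 14 of 53 Fit2-WT cells had an Il1b UMI. Single cells held up to 70 UMIs in Fit2-Mut and 43 UMIs in Fit2-WT. Few cells thus carry the Il1b ratio, and its counting interval is too narrow. When each cell counted equally, the Tlr2 log2 ratio in the full set was -0.24. In Fit2-Mut 5 cells held 51.7% of the Tlr2 UMIs.

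Monocyte-like cells had 2 of 9 genes past the fold, both upwards, beside 24.8% of all genes in the type. They were Tlr2, with 22 UMIs in Fit2-Mut and 17 UMIs in Fit2-WT (ratio 2.09, 1.06 to 4.20), and Myd88, with 12 UMIs in Fit2-Mut and 11 UMIs in Fit2-WT (1.76, 0.713 to 4.41). Neutrophil markers summed to 863 CPM in Fit2-Mut and 146 CPM in Fit2-WT monocyte-like cells. Choroid plexus markers summed to 718 CPM in Fit2-Mut and 16920 CPM in Fit2-WT, and oligodendrocyte markers to 1726 CPM in Fit2-Mut and 55.8 CPM in Fit2-WT, and their part in the ratios was not tested. Without the 1 Fit2-Mut cell in which microglia or neutrophil markers reached 0.2% of UMIs, Tlr2 had a ratio of 1.88 (0.926 to 3.85).

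Among lymphocytes, the B cell-like cells had 7 of 8 genes past the fold upwards, in a type where 42.5% of all genes were past it in either direction. Microglia or neutrophil markers reached 0.2% of UMIs in 27 of 61 Fit2-Mut and 4 of 38 Fit2-WT B cell-like cells. Without those cells Cd14 had 17 UMIs (100 CPM) in Fit2-Mut and 2 UMIs (16.7 CPM) in Fit2-WT. Its ratio was then 5.99 (1.42 to 53.5), against 1.56 with those cells. Il1b then had 27 UMIs in Fit2-Mut and 0 UMIs in Fit2-WT, and Pycard a ratio of 1.81 (0.723 to 5.14). Choroid plexus markers in all B cell-like cells summed to 519 CPM in Fit2-Mut and 8730 CPM in Fit2-WT, and dissociation genes to 10690 CPM in Fit2-Mut and 4744 CPM in Fit2-WT. Their part in these ratios was not tested. T cell-like cells had 1 of 3 genes past the fold, beside 18.2% of all genes: Myd88, with 6 UMIs in Fit2-Mut and 23 UMIs in Fit2-WT, a ratio of 0.262 (0.0872 to 0.661). The T cell-like markers were nearly level, at 6095 CPM in Fit2-Mut and 6155 CPM in Fit2-WT, with a median of 4154 and 4161 UMIs per cell. Erythrocyte markers in these cells summed to 25300 CPM in Fit2-Mut and 24.3 CPM in Fit2-WT, and their part in the Myd88 ratio was not tested.

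Astrocyte-like cells had 4 of 7 genes past the fold, 3 upwards and 1 downwards, beside 7.36% of all genes, and all 4 intervals held 1. They were Tlr2, Cd14, Pycard and, downwards, Casp1 with 10 UMIs in Fit2-Mut and 15 UMIs in Fit2-WT. Cd14 stood at 2.02 CPM in Fit2-Mut and 0.988 CPM in Fit2-WT, and Tlr2 at 4.17 CPM and 2.64 CPM. Free RNA had 71.9 CPM and 55.4 CPM of Cd14, and 33.84 CPM and 32.55 CPM of Tlr2. It was estimated at 5.30% of the UMIs of Fit2-Mut and 4.66% of those of Fit2-WT astrocyte-like cells. Its part in these ratios was not tested. Oligodendrocyte-like cells had 1 of 3 genes past the fold, Myd88 with 23 UMIs in Fit2-Mut and 8 UMIs in Fit2-WT, beside 8.27% of all genes. Choroid plexus-like cells had none of 7, beside 6.07% of all genes. These 1494 Fit2-Mut and 1439 Fit2-WT cells held 9.51% of the Pycard UMIs of Fit2-Mut cells and 12.2% of those of Fit2-WT cells, at 21.5 CPM in Fit2-Mut and 19.6 CPM in Fit2-WT. They also held 17.1% of the Myd88 UMIs in Fit2-Mut and 19.3% in Fit2-WT, at 3.38 CPM in Fit2-Mut and 2.86 CPM in Fit2-WT. The type made up 25.65% of Fit2-Mut and 27.63% of Fit2-WT cells. Free RNA was higher in both genes, with 35.4 CPM of Pycard in Fit2-Mut and 34.1 CPM in Fit2-WT. For Myd88 it had 6.08 CPM in Fit2-Mut and 4.99 CPM in Fit2-WT. Its share of the UMIs of choroid plexus-like cells could not be estimated. Fibroblast-like cells had 2 of 4, beside 25.4%, among them Pycard with 43 UMIs in Fit2-Mut and 13 UMIs in Fit2-WT (ratio 2.08, 1.10 to 4.22), of which 11 Fit2-Mut UMIs lay in 1 cell. Ependymal-like cells had 2 of 3, beside 15%, namely Il1b as described and Nlrp3 with 9 UMIs in Fit2-Mut and 14 UMIs in Fit2-WT.

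The wider pathway was described with 9 lists of partner genes. In microglia-like cells Tlr6 was past the fold upwards, as 1 of 5 other Toll-like receptors with at least 20 UMIs. Cd36 was past it upwards, as 1 of 8 accessory proteins. Of 5 other cytokines, Il12b was past it upwards and Il33 downwards. No gene of the remaining lists was past it. In this type 10.3% of all genes with that many UMIs were past the fold either way. The list medians of the log2 ratio ran from -0.21 for other cytokines to 0.20 for NF-kB subunits. All 14 adaptors and signalling kinases and all 5 NF-kB subunits were within the fold, with medians of 0.17 and 0.20, and so were 7 of 7 feedback inhibitors with a median of -0.07. The other Toll-like receptors had a median of 0.05, accessory proteins 0.04, other inflammasome sensors and regulators 0.08, inflammatory caspase and pyroptosis effectors 0.01 and cytokine receptors 0.00.

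**Figure D5:**
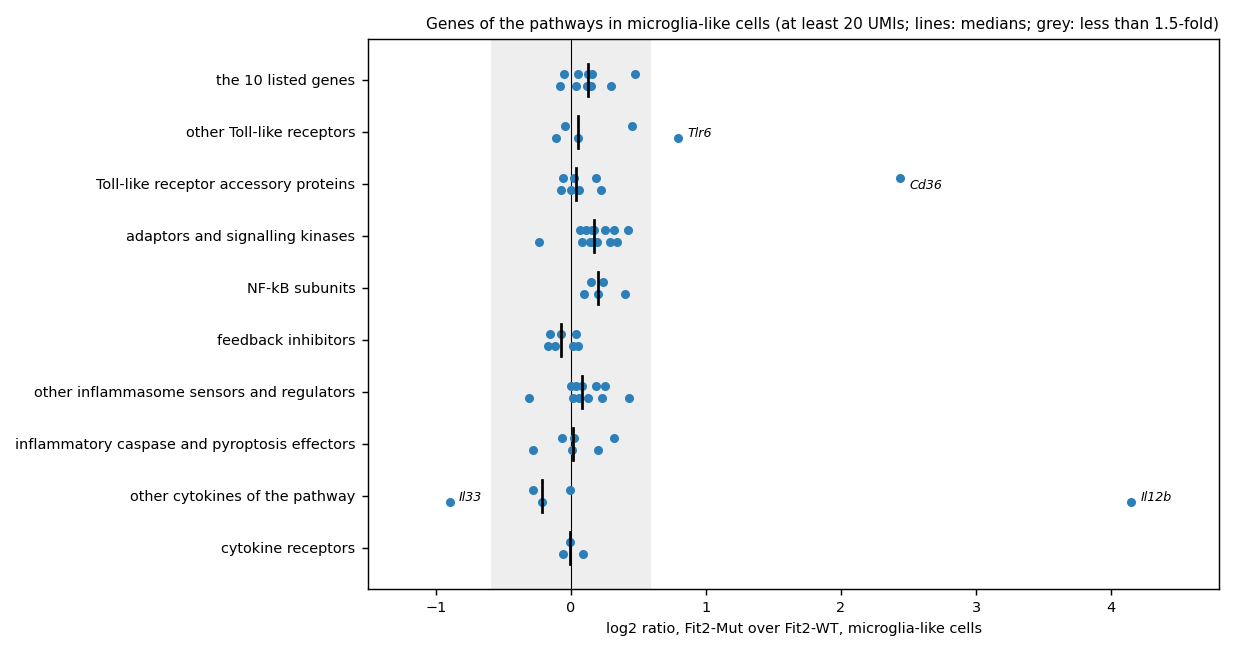
Log2 ratio, Fit2-Mut over Fit2-WT, in microglia-like cells for the 10 genes and 9 lists of pathway genes with at least 20 UMIs. Points are genes, black lines are list medians and the grey band is less than 1.5-fold; the 4 genes outside it are Tlr6, Cd36, Il12b and Il33.

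Cd36, a scavenger receptor that works with Tlr2 and Tlr6, had 47 UMIs in 25 Fit2-Mut cells and 7 UMIs in 2 Fit2-WT cells, a ratio of 5.41 (2.43 to 14.2). Il12b, a subunit of interleukins 12 and 23, had 22 UMIs in 5 Fit2-Mut cells and 1 UMI in 1 Fit2-WT cell. Tlr6, the partner receptor of Tlr2, had 43 UMIs in Fit2-Mut and 20 UMIs in Fit2-WT (ratio 1.73, 0.997 to 3.11). Il33 had 18 UMIs in Fit2-Mut and 27 UMIs in Fit2-WT (0.537, 0.279 to 1.01), and was far higher in oligodendrocyte-like cells, as given below. Free RNA was estimated at 0.883% of Fit2-Mut and 1.11% of Fit2-WT microglia-like UMIs, and its part in the Il33 ratio was not tested. Tnf, a cytokine induced with Il1b, was 261 CPM in Fit2-Mut and 317 CPM in Fit2-WT, a ratio of 0.822 (0.770 to 0.877) on the other side of 1 from Il1b. Il1a, the second interleukin 1 gene, was 178 CPM in Fit2-Mut and 179 CPM in Fit2-WT.

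Partners of the cytokines were found in other types. Il1r2, the decoy receptor of interleukin 1, was 1893 CPM in Fit2-Mut and 2156 CPM in Fit2-WT neutrophil-like cells, the same cells in which Il1b was highest. The signalling receptor gene Il1r1 was 46.6 CPM in Fit2-Mut and 42.1 CPM in Fit2-WT endothelial-like cells. The interleukin 18 receptor genes Il18r1 and Il18rap were found in NK cell-like cells, at 308 CPM and 328 CPM in Fit2-Mut and 306 CPM and 403 CPM in Fit2-WT. T cell-like cells had 160 CPM of Il18r1 in Fit2-Mut and 133 CPM in Fit2-WT. Oligodendrocyte-like cells, the second type for Il18, had 924 CPM in Fit2-Mut and 1009 CPM in Fit2-WT of Il33, another cytokine of the family.

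Among sensors outside the 10 genes, Tlr3, the receptor for double-stranded RNA, was 136 CPM in Fit2-Mut and 131 CPM in Fit2-WT astrocyte-like cells. Lbp, whose product carries lipopolysaccharide to Cd14, was 614 CPM in Fit2-Mut and 586 CPM in Fit2-WT ependymal-like cells, and 443 CPM in Fit2-Mut and 442 CPM in Fit2-WT choroid plexus-like cells, where Cd14 itself had 14 UMIs in Fit2-Mut and 13 UMIs in Fit2-WT. In neutrophil-like cells the NF-kB inhibitor gene Nfkbia, itself a target of NF-kB, was 835 CPM in Fit2-Mut and 1733 CPM in Fit2-WT, a ratio of 0.482 (0.410 to 0.565). Tnf there had 17 UMIs in Fit2-Mut and 49 UMIs in Fit2-WT, a ratio of 0.318 (0.172 to 0.562). These are the cells whose microglia and choroid plexus markers differed between the libraries, and 33.3% of all their genes were past the fold. Other lists went the other way there. Of those with enough UMIs, 2 of 3 NF-kB subunits, 4 of 6 accessory proteins and 2 of 4 other inflammasome genes were past the fold upwards. Of the feedback inhibitors, which include Nfkbia, 2 of 6 were past it downwards. In border-associated macrophage-like cells Tnf had 247 UMIs in Fit2-Mut and 43 UMIs in Fit2-WT (ratio 3.20, 2.31 to 4.53), beside the microglia marker levels given for that type.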

How the data were processed

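The deposited files hold UMI counts per gene and barcode for all barcodes, made by the authors with Cell Ranger 7.1.0 per the file headers, while the submitters' processing notes name version 7.0.0 and mm10. The annotation release, the use of intronic reads and strand are not given in the sources used here. Barcodes with at least 1000 UMIs, at least 500 genes and at most 10% mitochondrial UMIs were kept, and Scrublet, run per library through scanpy 1.11.5, marked 155 Fit2-Mut and 124 Fit2-WT barcodes as doublets, which were left out. Library totals were 63234140 UMIs in Fit2-Mut and 52491901 UMIs in Fit2-WT. Clusters were made from 2000 variable genes, 30 principal components and 15 neighbours with leidenalg 0.10.2 and python-igraph 0.11.9 at resolution 1, leaving out 84 pathway genes. A cluster was named where at least 3 markers and 0.5 of a list were 2-fold up and found in 10% of its cells. Other tools were numpy 2.4.6, scipy 1.17.1, scikit-learn 1.9.0 and matplotlib 3.10.9.

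Counts were summed per library and type, for types with at least 20 cells in each library. Levels have exact Poisson intervals, ratios exact conditional intervals and shares exact Clopper-Pearson intervals, all at 95%. Types at 0 UMIs have a limit of 3 counts. Shares were also taken after thinning each cell to 1000 or 5000 UMIs, and free RNA was read from barcodes with 10 to 100 UMIs. Named genes were the 10 genes, all genes of the pathway lists, and the 3 genes nearest each of the 10 in pattern among genes with at least 100 UMIs. The calculation was tested on simulated data with independent counts per gene. Those data had no clumping in cells, so the width of the intervals under clumping was not tested. The genes, lists and markers were chosen with earlier results of these data known.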

Additional observations from a re-analysis of the deposited data

Results flagged for a closer look

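For Cd14 and Il1b the ratio of Fit2-Mut to Fit2-WT lay on different sides of 1 in different cell types, with counting intervals that left out 1. Cd14 had a ratio of 1.56 in B cell-like cells, 1.21 in border-associated macrophage-like cells and 0.947 in microglia-like cells. Without cells holding microglia or neutrophil markers, the direction turned in border-associated macrophage-like cells, with a Cd14 ratio of 0.733 (0.508 to 1.05). The B cell-like ratio was then 5.99 (1.42 to 53.5). Il1b had a ratio of 2.41 in B cell-like cells, 1.53 in ependymal-like cells, 1.39 in microglia-like cells and 0.675 in neutrophil-like cells. The difference between types was not tested, since each genotype has 1 library. In B cell-like cells 5 cells held 92.4% of the Il1b UMIs in Fit2-Mut and all 15 UMIs in Fit2-WT.

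Clusters that could not be named also held the genes. Cluster 22, led by Nlrp1b, had 45 Fit2-Mut and 42 Fit2-WT cells with a median of 1914 UMIs in Fit2-Mut and 1610 UMIs in Fit2-WT. Its ratios were 2.37 for Tlr2 (25 UMIs in Fit2-Mut and 11 UMIs in Fit2-WT), 3.13 for Nlrp3 (15 and 5 UMIs) and 4.17 for Il1b (64 and 16 UMIs). Of all genes with enough UMIs, 43.3% were past 1.5-fold in that cluster, and dissociation genes summed to 6916 CPM in Fit2-Mut and 4018 CPM in Fit2-WT. Cluster 27, with T cell and microglia genes together, had 42 Fit2-Mut and 12 Fit2-WT cells, and ratios of 0.633 for Tlr2, 0.528 for Cd14 and 1.8 for Il1b, where 32.3% of all genes were past 1.5-fold.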

How the results depend on the processing

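For 46 ratios in 11 cell types, 15 alternative settings gave 534 values, of which 471 lay inside the 95% counting interval of the ratio as reported and 53 outside it, while 10 had the opposite sign to a ratio past 1.5-fold. A change of sign was looked for only in ratios past 1.5-fold. The setting that left out cells holding microglia or neutrophil markers of another type was chosen after seeing the data. The cause of these changes was not tested. The log2 ratio of Tlr2 in border-associated macrophage-like cells was -0.24 with cells weighted equally, -1.74 with cells thinned to 1000 UMIs and -0.02 without the mixed cells; that of Nlrp3 there was -1.15 when thinned, and that of Il18 was -0.39 with types set by marker share per cell. In monocyte-like cells Tlr2 was -1.36 when thinned and Myd88 -0.24 without the 5 top cells per library. Pycard in neutrophil-like cells was -0.15 without the mixed cells. Il1b in ependymal-like cells was -5.88 at a mitochondrial limit of 5% and -5.67 with types set by marker share.

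Il1b in microglia-like cells, at 0.48, was 0.73 without the 5 top cells per library and 1.56 without cluster 7. In neutrophil-like cells it was -0.57, and -0.69 with types set by marker share, -0.74 with TMM scaling, -0.28 with cells weighted equally, -0.31 when thinned and -0.33 without the mixed cells. The number of the 10 genes past the fold in microglia-like cells, 0, was 1 with cells weighted equally, 2 when thinned, 1 without the 5 top cells and 1 without cluster 7, and their median log2 ratio was 0.24 without cluster 7. The share of all genes past the fold there was 22% with at least 1 UMI in each library, 2.55% with at least 100 UMIs together and 3.67% at 2-fold. With cells of at least 500 UMIs and 250 genes, and with clusters made from all variable genes, border-associated macrophage-like and monocyte-like cells were not named, so 27 of the 46 ratios had a value. Subtracting free RNA gave no value for choroid plexus-like cells. No paired analysis was possible because each genotype has 1 library. Low counts limit Myd88 and Tlr4, with 90 and 186 UMIs in Fit2-Mut and 59 and 137 UMIs in Fit2-WT microglia-like cells.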
